A study of Rattus norvegicus with 15 samples.

Results

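Myh3, Myh8, Actc1, Myl4 and Tnnt2 encode sarcomere proteins that skeletal muscle makes before or around birth and later replaces with adult forms. They were selected by gene symbol, as 5 of the 37991 genes in the table, with the differences between these groups already known. The levels and fold changes of the 5 genes are therefore given as a description and carry no test. All 5 passed the filter on low counts.

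A sarcomere is the contractile unit of striated muscle, in which myosin filaments pull on actin filaments under the control of the troponin complex. During development a muscle fibre replaces embryonic and perinatal myosin heavy chains with adult fast and slow chains, and replaces cardiac-type actin, light chain and troponin T with skeletal forms. Developmental forms are known to return when adult fibres regenerate after injury, and some of them return after loss of the nerve supply. Myh3 (gene ID 24583, chromosome 10) encodes the embryonic myosin heavy chain and Myh8 (252942, chromosome 10) the perinatal chain. Actc1 (29275, chromosome 3) encodes cardiac alpha actin, the main alpha actin of early skeletal muscle and of adult heart. Myl4 (688228, chromosome 10) encodes the essential light chain of embryonic muscle and of the atrium. Tnnt2 (24837, chromosome 13) encodes the cardiac-type troponin T, the subunit that anchors the troponin complex to tropomyosin.

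Total RNA of multifidus, a deep muscle of the back, was sequenced from wild type rats in 15 libraries of 5 groups. Control rats had no surgery (2 libraries), and rats of the surgery group had a left hemilaminectomy with ligation of the L5 spinal nerve and no later treatment (2 libraries). The pMT group received mitochondria isolated from human plasma (pMT) after surgery, at 25 µg per site, carried by 100 µL of SHE buffer, and 50 µg in total (4 libraries). The VitD group received cholecalciferol, a form of vitamin D, at 150 µg per site and 300 µg in total (3 libraries), and the pMT/VitD group received both at these doses (4 libraries). For the first 3 groups the study's methods give male Sprague Dawley rats of 12 weeks, injection into the left paraspinal muscles 2 weeks after surgery and tissue collection 2 weeks after that. For the groups with vitamin D they give neither age, surgery nor timing, so it is not known from the sources used here that those rats were operated. No group is described as receiving buffer alone, so pMT, its buffer and the injection cannot be told apart in the comparison of the pMT group with the surgery group. The labels do not say that each library came from its own animal, and the tests measure the spread between these libraries.

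Each library held 52342134 to 73557878 counts in total (median 64352162). Replicate 4 of the pMT group and replicate 4 of the pMT/VitD group stood apart from their groups and were nearer to each other's group. The SD of log2 ratios across genes was 0.365 to 0.558 between pMT replicate 4 and the other pMT libraries, and 0.193 to 0.335 between it and pMT/VitD replicates 1 to 3. For pMT/VitD replicate 4 it was 0.406 to 0.503 within its own group, and 0.238 to 0.301 against pMT replicates 1 to 3. Against the control libraries it was also low for this library, at 0.223 and 0.246. Nor was this trait confined to the replicates 4. The SD for pMT/VitD replicate 3 was 0.248 and 0.282 against control and 0.329 to 0.406 within its own group. Group means, family shares and correlations of the 5 genes are given with and without both replicates 4. The surgery libraries were close to each other (0.103), but they differed by more than sampling noise and were counted as 2 samples.

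The tissue was skeletal muscle by its defining transcripts. All 7 skeletal muscle markers were detected in every group, with a summed level of 97001 to 201027 CPM (counts scaled to the same library total) per library. Since Actc1, Myl4 and Tnnt2 are also heart genes, heart muscle markers were examined. Of 9 such markers, 4 (Nppa, Nppb, Nkx2-5 and Myl7) stayed within the floor, set at 3 counts or fewer in every library. Their counts were 0 in all 15 libraries. Nearly all of the heart list's sum came from Myh6, which averaged 191 CPM in the control group and 273 CPM in the surgery group.

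The bases before the annotated starts of the 3 genes with the largest differences between groups are shown, because these genes moved together. The sequences are those of RefSeq on the GRCr8 assembly, which held a promoter window for all 5 genes, and the libraries did not test which start was used. Whether the annotated starts of Actc1 and Myh8 are those used in muscle is not known from the sources used here. Each line gives the 250 bases before the start, 5′ to 3′ on the gene's strand. Capitals mark the motifs found.
Myh3, chr10:52268935-52269184, + strand: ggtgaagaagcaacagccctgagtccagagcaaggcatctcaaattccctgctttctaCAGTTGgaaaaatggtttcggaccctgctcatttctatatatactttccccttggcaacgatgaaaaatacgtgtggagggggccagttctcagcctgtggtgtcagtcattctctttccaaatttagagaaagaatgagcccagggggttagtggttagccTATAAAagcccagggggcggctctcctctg
Actc1, chr3:121271828-121272077, - strand: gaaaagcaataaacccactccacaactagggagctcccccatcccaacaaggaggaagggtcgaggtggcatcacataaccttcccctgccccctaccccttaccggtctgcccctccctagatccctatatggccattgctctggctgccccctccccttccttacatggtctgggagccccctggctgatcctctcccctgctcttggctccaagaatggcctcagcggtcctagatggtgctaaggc
Tnnt2, chr13:49818873-49819122, + strand: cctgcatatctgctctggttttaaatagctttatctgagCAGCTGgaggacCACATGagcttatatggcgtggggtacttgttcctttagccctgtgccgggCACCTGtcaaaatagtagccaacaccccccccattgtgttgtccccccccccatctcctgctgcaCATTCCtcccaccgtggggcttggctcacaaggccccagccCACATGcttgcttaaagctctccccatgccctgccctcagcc

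Motifs were searched in windows of 300 bases, 250 before the start and 50 from it onward, with position -1 for the base before the start and 1 for the start itself. The Myh3 window held a TATA box (TATAAA, read on the gene's strand) from -30 to -25 and an E-box (CANNTG, the letters bound by MyoD and its relatives) from -192 to -187. Of 2 annotated Tnnt2 starts, the window shown held 4 E-boxes, the nearest from -42 to -37, and the M-CAT letters (CATTCC, either strand) from -83 to -78. The window of the other Tnnt2 start (chr13:49823809-49824058 before the start) held 1 E-box, from -200 to -195, and no M-CAT letters. The Actc1 window held none of these before the start and a CArG box, the motif of serum response factor, from 3 to 12 (CCAAATAAGG). Among 33469 annotated windows of the same length, 72.1% held an E-box, 14.2% the M-CAT letters, 8.80% the TATA letters, 1.64% a CArG box and 3.29% a MEF2 site. Myl4 held 3 E-boxes, the Myh8 window held none of the 5 motifs, and none of the 5 genes' windows held a MEF2 site. A match here is a match of letters, not evidence of binding.

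In control muscle the 5 genes were not equally low. On the length-corrected scale of TPM (read counts scaled by transcript length and by library), Myh8 was the most abundant at 45.5 ± 0.475 (SD, n = 2), followed by Actc1 at 15.2 ± 0.967, Myl4 at 9.97 ± 0.230, Myh3 at 5.43 ± 1.27 and Tnnt2 at 2.21 ± 0.0225. In the surgery group the order was Actc1 at 189 ± 5.32, Myh3 at 84.6 ± 1.73, Myh8 at 52.7 ± 1.01, Tnnt2 at 24.8 ± 0.472 and Myl4 at 24.7 ± 0.0258. Thus Myh8 outnumbered Myh3 by 7.14 to 10.1 times in the control libraries, and the ratio of their TPM was 0.622 and 0.623 in the surgery libraries.

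Myh3 was low in control, pMT and pMT/VitD muscle and high in surgery and VitD muscle. Its level was 30.7 and 21.9 CPM in the control libraries and 326 and 335 CPM with surgery alone. The pMT libraries had 17.7, 57.2, 61.7 and 15.5 CPM and the pMT/VitD libraries 22.3, 16.9, 27.8 and 30.9 CPM. The VitD libraries had 993, 343 and 113 CPM, the widest spread of any group. The 10 control, pMT and pMT/VitD libraries (15.5 to 61.7 CPM) and the 5 surgery and VitD libraries (113 to 993 CPM) did not overlap. How many of all tested genes divide the 15 libraries in this way was not counted. Nothing is therefore read from this division, here or below.

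The fitted difference between the surgery and control groups in Myh3 was 3.65 ± 0.871 on the log2 scale (SE), or 12.5-fold. Between the pMT and surgery groups it was -3.12 ± 0.660, and between pMT/VitD and surgery -3.75 ± 0.670. The pMT group differed from control by 0.53 ± 0.698 and the pMT/VitD group by -0.11 ± 0.683, with overlapping libraries in both cases. These comparisons share the surgery or the control libraries. Without both replicates 4, mean Myh3 was 45.5 ± 24.2 CPM in the pMT group and 22.3 ± 5.46 CPM in the pMT/VitD group (SD, n = 3), against 38.0 ± 24.8 and 24.5 ± 6.20 CPM (n = 4) with them.

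Actc1 divided the libraries in the same way. It was 19.0 and 17.3 CPM in the control libraries and 186 and 178 CPM with surgery alone. The pMT libraries had 17.4, 21.3, 26.2 and 25.4 CPM and the pMT/VitD libraries 28.7, 31.8, 16.8 and 21.1 CPM. The VitD libraries had 445, 184 and 88.5 CPM. Again the 10 control, pMT and pMT/VitD libraries lay at or under 31.8 CPM and the 5 others at or above 88.5 CPM. The fitted difference was 3.33 ± 0.549 (log2, SE; 10.03-fold) between surgery and control, -3.01 ± 0.421 between pMT and surgery and -2.89 ± 0.421 between pMT/VitD and surgery. Leaving out both replicates 4, mean Actc1 was 21.6 ± 4.41 CPM in the pMT group and 25.8 ± 7.95 CPM in the pMT/VitD group (SD, n = 3), against 22.6 ± 4.07 and 24.6 ± 6.89 CPM (n = 4) with them.

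Tnnt2 was the least abundant of the 5 genes in control muscle and showed the same division. Its level was 2.30 and 2.23 CPM in the control libraries (146 and 134 counts) and 19.8 and 19.2 CPM with surgery alone. The pMT libraries had 2.59, 3.10, 3.57 and 4.23 CPM, all above both control libraries, and the pMT/VitD libraries 5.42, 6.17, 2.19 and 2.34 CPM. The VitD libraries had 51.0, 21.2 and 10.6 CPM. As part of this division, from which nothing is read, the highest pMT/VitD library stayed under the lowest VitD library. Fitted differences were 3.10 ± 0.633 (log2, SE; 8.59-fold) between surgery and control, -2.53 ± 0.484 between pMT and surgery and -2.27 ± 0.485 between pMT/VitD and surgery. Mean Tnnt2 without both replicates 4 was 3.09 ± 0.488 CPM in the pMT group and 4.60 ± 2.11 CPM in the pMT/VitD group (n = 3), against 3.37 ± 0.698 and 4.03 ± 2.06 CPM with them. The gene has 21 RefSeq transcripts in the table, whose forms were not separated here.

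Myl4 differed less between groups. Control libraries had 6.48 and 6.27 CPM and both surgery libraries 12.7 CPM, a fitted difference of 0.996 ± 0.537 (log2, SE; 1.99-fold). The pMT libraries had 8.07, 7.66, 5.27 and 16.9 CPM, the pMT/VitD libraries 17.2, 16.0, 7.72 and 5.14 CPM, and the VitD libraries 16.7, 12.0 and 10.3 CPM. In the groups given pMT, the libraries lay on both sides of the surgery level in CPM. In TPM all 4 pMT libraries (10.8 to 21.5) and all 4 pMT/VitD libraries (8.998 to 22.3) lay under both surgery libraries (24.7), so this statement turns with the scale. How many of all tested genes lie so in TPM was not counted, and nothing is read from it. The fitted difference from surgery was -0.43 ± 0.451 in the pMT group and -0.14 ± 0.455 in the pMT/VitD group. Without both replicates 4, mean Myl4 was 7.0 ± 1.52 CPM in the pMT group and 13.6 ± 5.17 CPM in the pMT/VitD group (SD, n = 3), against 9.47 ± 5.09 and 11.5 ± 5.995 CPM (n = 4) with them.

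Myh8, the perinatal chain, was at a similar level in control, surgery and VitD muscle. It was 197 and 199.8 CPM in the control libraries, 183 and 188 CPM in the surgery libraries, and 213, 193 and 186 CPM in the VitD libraries. The fitted difference between surgery and control was -0.10 ± 0.577 (log2, SE). The pMT libraries ranged widely at 153, 223, 308 and 56.4 CPM, as did the pMT/VitD libraries at 72.9, 81.5, 191 and 187 CPM. All 4 pMT/VitD libraries were under both control libraries (-0.58 ± 0.490), which held for 4.97% of all tested genes in that direction and did not hold in TPM. The mean of Myh8 without both replicates 4 was 228 ± 77.6 CPM in the pMT group and 115 ± 65.8 CPM in the pMT/VitD group (SD, n = 3), against 185 ± 107 and 133 ± 64.8 CPM (n = 4) with them.

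**Figure D1:**
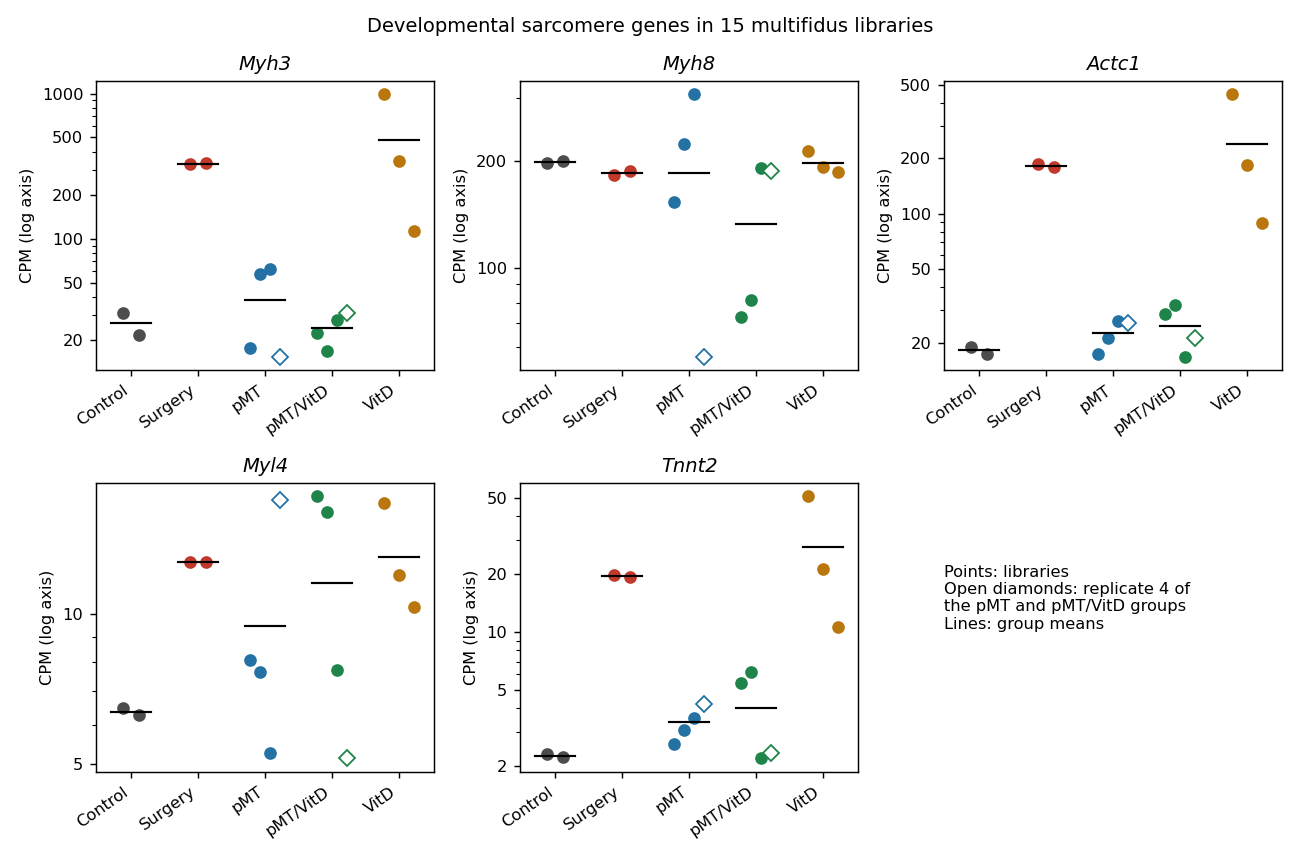
CPM (vertical, log axis) of the 5 developmental sarcomere genes in each of the 15 libraries by group (horizontal). Points are libraries, open diamonds are replicate 4 of the pMT and pMT/VitD groups and lines are group means. Myh3, Actc1 and Tnnt2 separate the surgery and VitD libraries from the rest (for Actc1, 88.5 CPM and above against 31.8 CPM and under), while Myh8 and Myl4 do not. The share of all tested genes that separate them in this way was not counted.

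Ordered by mean CPM, the groups ran VitD, surgery, pMT, control and pMT/VitD for Myh3, and VitD, surgery, pMT/VitD, pMT and control for Actc1, Tnnt2 and Myl4. For Myh8 they ran control, VitD, pMT, surgery and pMT/VitD. For Myh3 and Actc1 the library ranges of neighbours in this order did not overlap only at the step below surgery. For Tnnt2 they also did not overlap between pMT and control. For Myl4 and Myh8 every neighbouring pair of groups overlapped. In TPM the order of pMT and pMT/VitD was exchanged for Actc1 and Tnnt2, and for Myh8 the groups ran VitD, surgery, pMT, control and pMT/VitD. Counted over whole groups in CPM, 4 of the 5 genes (all but Myh8) were higher in both surgery libraries than in both control libraries, as were 31.7% of tested genes, and Myh8 was lower in both, as were 34.4%. The direction for Myh8 turned with the scale. In TPM the surgery libraries had 51.9 and 53.4, above the 45.2 and 45.8 with control, and with library size as the only scaling its fitted difference was 0.17 on the log2 scale. Myh3, Actc1 and Tnnt2 were lower in all pMT libraries than in both surgery libraries (17.2% of genes) and in all pMT/VitD libraries than in both surgery libraries (20.2%). All but Myh8 were higher in every VitD library than in both control libraries (25% of genes), and Tnnt2 was higher in every pMT library than in both (7.41%). In TPM Myh8 was also higher in every VitD library than in both control libraries, Actc1 and Myl4 joined Tnnt2 in the pMT group, and Myh8 in the pMT/VitD group overlapped control (13.8 to 48.1) and lay under surgery. The shares of all tested genes that separate groups in TPM were not counted, so nothing is read from the separations in TPM.

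The fit of all 17201 tested genes by edgeR's quasi-likelihood test called genes at a Benjamini-Hochberg adjusted p under 0.05. Between surgery and control it called 1.25% of genes higher and 0.296% lower, and among the higher were 2 of the 5 genes, Actc1 and Tnnt2. Between pMT and surgery it called 0.395% higher and 1.55% lower, with Myh3, Actc1 and Tnnt2 among the lower. Between pMT/VitD and surgery the background was 2.4% higher and 5.03% lower, with the same 3 genes lower. Between VitD and control it was 5.48% higher and 3.2% lower, with the same 3 genes higher. Nothing is read from these counts, since the 5 genes were chosen with such differences known. The test called 0 genes between pMT and control, 0 between pMT/VitD and control, 0 between pMT/VitD and pMT and 0 between VitD and surgery. At an unadjusted p under 0.05 these comparisons had 528, 496, 1737 and 139 genes, and DESeq2 called 97 genes between pMT/VitD and pMT.

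The calls depended on the processing more than the fitted values did. Over all alternatives the log2 differences between surgery and control stayed at 3.43 to 3.92 for Myh3, 3.26 to 3.59 for Actc1 and 3.08 to 3.37 for Tnnt2. Without control replicate 1 or 2, or without surgery replicate 1 or 2, 0 of the 5 genes were called in this comparison, and only 0.0393% to 0.101% of all tested genes were called higher. With no filter on low counts only Actc1 was called there (0.663% of all genes higher). Other alternatives added calls. Myh3 joined Actc1 and Tnnt2 with library size as the only scaling (5.63% of genes higher) and with DESeq2 (1.81%). It also did so with at least 10 counts in every library (1.78%) and with the length trend removed (2.15%). Both Myh3 and Myl4 joined them with only the 2 groups in the fit (16.6%) and with exactTest (18.8%). Nothing is read from these calls.

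Between pMT and surgery, only Actc1 stayed called without surgery replicate 1 or 2, where 0.146% and 0.152% of all tested genes were called lower. The same held without pMT replicate 1 or 2 (0.652% and 0.588%) and with a replicate block (0.395%). Actc1 and Tnnt2 stayed called without pMT replicate 4 (1.29% of genes lower), without both replicates 4 (2.28%) and with no filter on low counts (0.962%). Between pMT/VitD and surgery, only Actc1 stayed called without surgery replicate 1 or 2 (0.665% and 0.614% lower) and with a replicate block (1.75%). All 3 genes stayed called there without pMT/VitD replicate 4 (7.74%) and without both replicates 4 (10.7%). Between VitD and control, 0 of the 5 genes were called without control replicate 1 (0.0562% of genes higher), without control replicate 2 (0.129%) or with only the 2 groups in the fit (0.374%). Myl4 joined the 3 called genes there without both replicates 4 (9.41%) and with exactTest (8.37%).

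**Figure D2:**
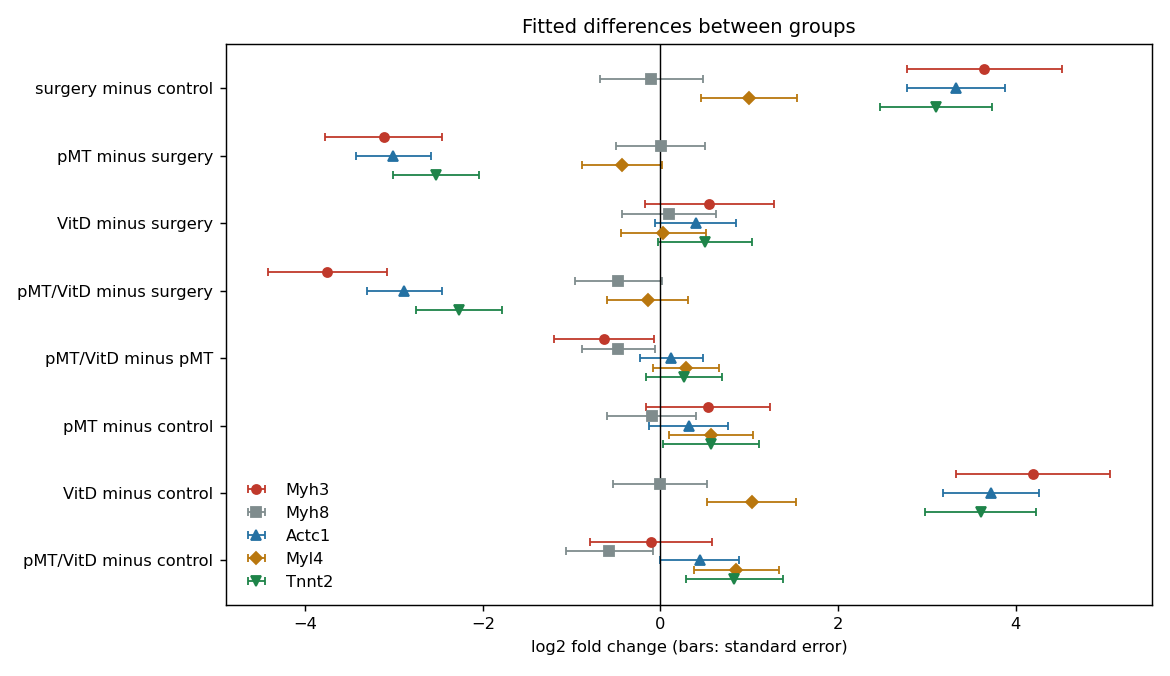
Fitted log2 fold changes (horizontal) of the 5 genes in 8 comparisons between groups (vertical), with standard errors as bars. Myh3, Actc1 and Tnnt2 lie at 3.10 to 3.65 between surgery and control and at -2.53 to -3.12 between pMT and surgery, while Myh8 lies near 0 in both.

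The groups given vitamin D differed from each other in the same 3 genes. With vitamin D alone, Myh3 was 4.20 ± 0.869, Actc1 3.72 ± 0.541 and Tnnt2 3.60 ± 0.623 above control (log2, SE). Against surgery the differences were 0.55 ± 0.725, 0.39 ± 0.461 and 0.50 ± 0.525, with the surgery libraries inside the range of the VitD libraries. This excess rested on VitD replicate 1, without which the differences from surgery were -0.53 for Myh3, -0.42 for Actc1 and -0.30 for Tnnt2. With pMT added to vitamin D, the libraries overlapped those of pMT alone in all 3 genes. The differences between pMT/VitD and pMT were -0.64 ± 0.561 for Myh3, 0.12 ± 0.358 for Actc1 and 0.26 ± 0.428 for Tnnt2. For Myl4 (0.29 ± 0.376) and Myh8 (-0.48 ± 0.409) the libraries of both groups overlapped too. Without both replicates 4 edgeR's quasi-likelihood test called 1 of the 5 genes, Myl4, higher in pMT/VitD than in pMT, where it called 9.45% of all tested genes higher and 8.81% lower. Nothing is read from this call.

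Set against their adult counterparts, the developmental transcripts were a small share in every group. Myh3 made up 0.0617 ± 0.0162% of the TPM of 6 myosin heavy chains (Myh1, Myh2, Myh3, Myh4, Myh7 and Myh8) in the control group and 0.908 ± 0.0163% in the surgery group (SD, n = 2). It was 0.0834 ± 0.0439% in the pMT group, 0.0585 ± 0.0125% in the pMT/VitD group (n = 4) and 0.298% to 3.06% in the 3 VitD libraries. The share of Myh8 was 0.515 ± 0.00980% in the control group, 0.565 ± 0.00937% in the surgery group, 0.460 ± 0.206% in the pMT group, 0.350 ± 0.153% in the pMT/VitD group and 0.616 ± 0.0997% in the VitD group. Even in VitD replicate 1, the library with most Myh3, both developmental chains together were 3.79% of the myosin heavy chain TPM. The Myh3 share without both replicates 4 was 0.0974 ± 0.0415% in the pMT group and 0.0533 ± 0.00845% in the pMT/VitD group (n = 3), and the Myh8 share 0.557 ± 0.0837% and 0.3002 ± 0.143%.

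Actc1 was 0.0290 ± 0.00204% of the summed TPM of Actc1 and Acta1, the adult skeletal alpha actin, in the control group and 0.337 ± 0.000648% in the surgery group. It was 0.0430 ± 0.00775% in the pMT group, 0.0360 ± 0.00935% in the pMT/VitD group and 0.156% to 1.13% in the VitD libraries. Tnnt2 was 0.0103 ± 0.000468% of the troponin T transcripts in the control group and 0.111 ± 0.00315% in the surgery group. In the groups given pMT it was 0.0180 ± 0.00365% alone and 0.0148 ± 0.00564% with vitamin D. Myl4 was 0.0333 ± 0.00291% of 3 essential light chains (Myl1, Myl3 and Myl4) in the control group and 0.0781 ± 0.000278% in the surgery group. Its pMT (0.0543 ± 0.0150%) and pMT/VitD (0.0482 ± 0.0177%) shares lay between those. With both replicates 4 left out, the pMT and pMT/VitD shares were 0.0420 ± 0.00918% and 0.0370 ± 0.0112% for Actc1, 0.0182 ± 0.00444% and 0.0157 ± 0.00657% for Tnnt2, and 0.0474 ± 0.00691% and 0.0536 ± 0.0171% for Myl4 (n = 3). Acta1 itself was at 52596 ± 7039 TPM in the control group and 55823 ± 1680 TPM in the surgery group.

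**Figure D3:**
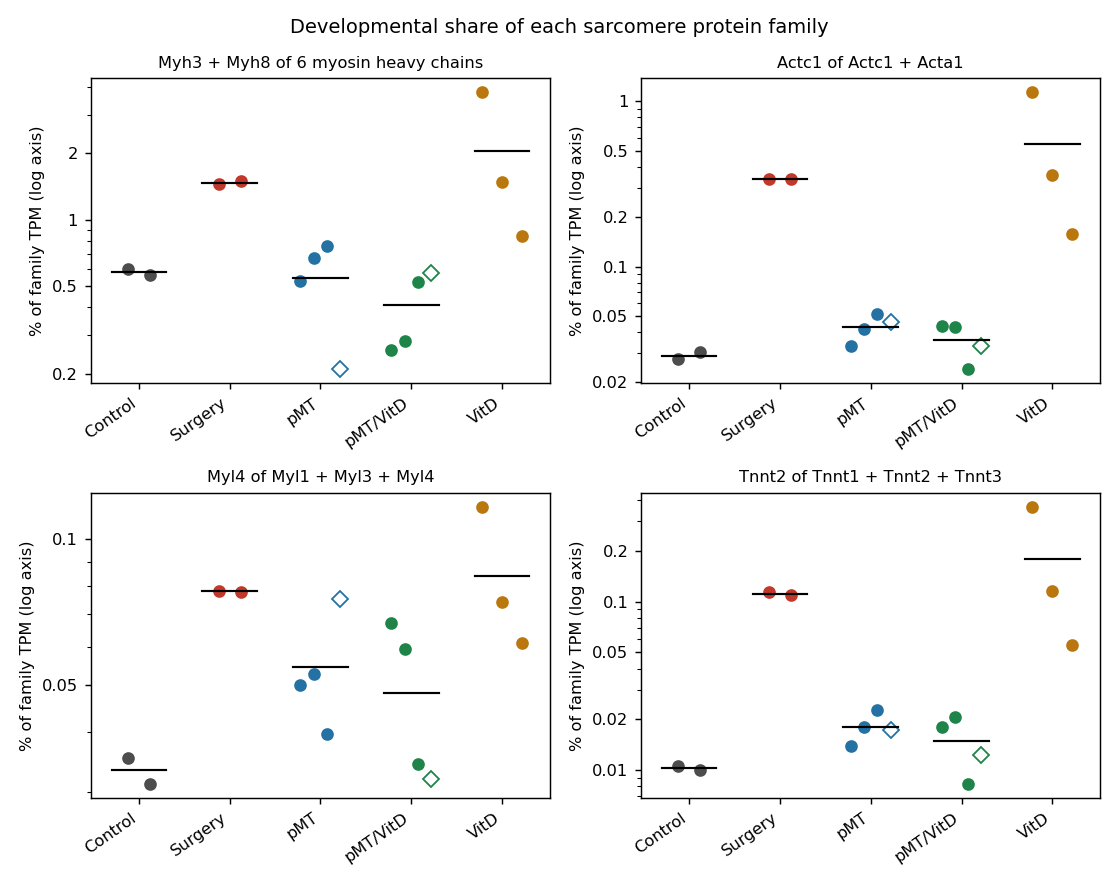
Share of the developmental transcript in the summed TPM of its protein family (vertical, percent, log axis) in each library by group (horizontal). Points are libraries, open diamonds are replicate 4 of the pMT and pMT/VitD groups and lines are group means. The myosin, actin, essential light chain and troponin T shares are higher in both surgery libraries than in any control, pMT or pMT/VitD library. For the light chain the margin is small, with 0.0779% in surgery replicate 2 and 0.0752% in pMT replicate 4. The Actc1 share rises from a mean of 0.0290% in the control group to 0.337% in the surgery group.

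How reads that fit several genes were handled is not given in the sources used here. Myh3 and Myh8 lie in a cluster with Myh2, Myh1 and Myh4 on chromosome 10, and Actc1 and Acta1 have nearly the same coding sequence. Whether the values of Myh3, Myh8 and Actc1 hold reads of their relatives was not tested. Across all libraries the adult chain Myh4 had 1229 to 7704 TPM, against 2.60 to 260.0 TPM for Myh3.

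Across the 15 libraries Actc1 and Tnnt2 moved most alike of the 10 pairs of these genes, with Pearson's r of 0.99 on log2 CPM and 0.95 for deviations from the group means. The ratio of Actc1 to Tnnt2 in TPM stayed between 4.32 and 7.66 in every library. Myh3 and Actc1 had r = 0.94 and 0.64 for deviations, and Myh3 and Tnnt2 0.89 and 0.41. Myh8 and Myl4 ran in opposite directions, with r = -0.66 and -0.89 for deviations. The libraries with the least Myh8 (pMT replicate 4 and pMT/VitD replicates 1 and 2) were among the 4 with the most Myl4. In the 13 libraries without both replicates 4, r was 0.99 and 0.97 for Actc1 and Tnnt2, 0.95 and 0.78 for Myh3 and Actc1, 0.91 and 0.64 for Myh3 and Tnnt2, and -0.65 and -0.82 for Myh8 and Myl4, the second value of each pair being for deviations. These correlations are descriptions over libraries that share groups and the same scaling.

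**Figure D4:**
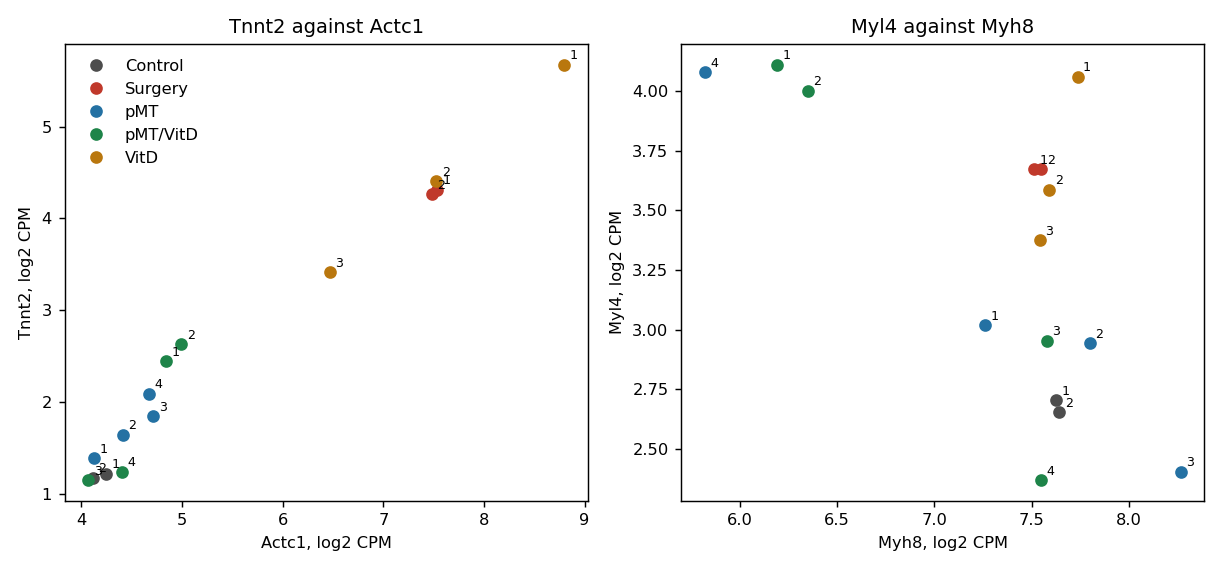
Log2 CPM of Tnnt2 against Actc1 (left) and of Myl4 against Myh8 (right), with a point for each of the 15 libraries, coloured by group and numbered by replicate. Tnnt2 and Actc1 rise together (r = 0.99), while the libraries with the least Myh8 have high Myl4 (r = -0.66).

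Of 11394 genes compared, those whose log2 CPM was most like Actc1 were Gpnmb (r = 0.99), a glycoprotein known from macrophages and osteoclasts, Cdkn1a (0.99), the cell cycle inhibitor p21, and Lyz2 (0.99), a lysozyme of macrophages. Tnnt2 was most like Gpnmb (0.99), Cdkn1a (0.98) and Chrna1 (0.98), the alpha subunit of the muscle acetylcholine receptor. Myh3 was most like Myof (0.98), a membrane repair and fusion protein, Col16a1 (0.98), a collagen, and Eln (0.98), elastin. For Myl4 the most alike genes were Nnat (0.97), LOC108348064 (0.97) and Aph1b (0.97), and for Myh8 they were LOC103693367 (0.97), Myo9b (0.96) and Prrx1 (0.94). Without both replicates 4, r for these 15 pairs was 0.94 to 0.99, but 0 of the 3 genes named for Myh3 and 0 of those for Tnnt2 stayed among the 3 most alike, against 2 of 3 for each of Actc1, Myl4 and Myh8. These are the largest of many correlations over 15 libraries and carry no test.

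Summed macrophage and fibroblast markers divided the libraries as Myh3, Actc1 and Tnnt2 did. The summed level of 8 macrophage markers, all detected in every group, was 224 to 244 CPM in the control libraries, 427 to 437 CPM in the surgery libraries, 161 to 255 CPM in the pMT libraries, 149 to 263 CPM in the pMT/VitD libraries and 381 to 547 CPM in the VitD libraries. The sum of 6 fibroblast markers was 2633 to 2657 CPM in the control libraries, 4638 to 4667 CPM in the surgery libraries, 2595 to 3067 CPM in the pMT libraries, 1948 to 2853 CPM in the pMT/VitD libraries and 3869 to 7383 CPM in the VitD libraries. Both sums were higher in each surgery and VitD library than in any other, and the share of all tested genes with this division was not counted. Most of the fibroblast sum came from the collagens Col1a1, Col1a2 and Col3a1. The other fibroblast markers are named here after their values were seen. Lum was 71.4 to 81.2 CPM in the control libraries and 109 to 114 CPM in the surgery libraries, while Dcn was 683 to 768 and 627 to 657 CPM and Pdgfra 36.0 to 38.3 and 42.2 to 44.5 CPM. The sum of 6 smooth muscle markers ran the other way. It was 5294 to 5494 CPM with control and 3814 to 3843 CPM with surgery. It was 4049 to 4491 CPM with pMT, 5210 to 5971 CPM with pMT/VitD and 3101 to 3980 CPM with VitD. Most of this sum came from Des, with means of 5178 CPM in the control group and 3583 CPM in the surgery group. The other smooth muscle markers are also named after their values were seen. Control and surgery means were 57.6 and 64.1 CPM for Acta2, 41.1 and 51.0 for Myh11 and 2.65 and 3.57 for Cnn1. They were 63.4 and 78.8 CPM for Tagln and 50.8 and 48.0 for Smtn. Endothelial markers (5 genes) did not follow this division, with 239 to 240 CPM in the surgery libraries and 189 to 283 CPM in the pMT libraries, nor did adipocyte markers (5 genes), with 261 to 269 CPM and 231 to 405 CPM. Summed skeletal muscle markers ran from 133741 to 137323 CPM in the surgery libraries against 160004 to 176485 CPM in the control libraries. Their part in the results was not tested. In bulk tissue, fewer cells of a type and less RNA per cell cannot be told apart.

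Adult sarcomere genes were then examined as the counterparts of the developmental forms. Of 15 such genes, 0 were called in any of the 8 comparisons by edgeR's quasi-likelihood test. Over the 8 comparisons exactTest gave 14 calls in this list, and the fit without both replicates 4 gave 15. The median log2 difference of the list between surgery and control was -0.01, beside -0.01 over all tested genes. This median joins 7 positive and 8 negative differences, from 0.49 ± 0.286 for Myl2 to -0.62 ± 0.432 for Myh4 (log2, SE). Acta1, the most abundant, differed by -0.23 ± 0.216 (log2, SE). Its direction turned with the scale. Mean TPM was 52596 ± 7039 in the control group and 55823 ± 1680 in the surgery group (SD, n = 2). Of 11 other embryonic or cardiac-type sarcomere genes, 9 were tested and 0 were called in any comparison by the same test. In this list exactTest gave 10 calls and the fit without both replicates 4 gave 5. The median of the list was 0.18 between surgery and control and -0.15 between pMT and surgery. The most abundant genes of this list were Nrap, a protein of developing myofibrils, and Xirp1, a protein of the intercalated disc and of damaged fibres. Between surgery and control they differed by 0.10 ± 0.155 and -0.02 ± 0.819.

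Myogenic regulators and fusion genes, which drive the formation of new fibres, changed in part. This list was chosen with earlier results of these libraries known. Its calls and p-values, in all comparisons, are therefore given as a description, and nothing is read from them. Of 14 such genes, 3 rose and 0 fell between surgery and control, beside 1.25% and 0.296% of all tested genes. The median log2 difference of the list was 0.40. Myog, the transcription factor of myoblast differentiation, went from 19.4 ± 1.53 to 47.6 ± 1.48 CPM (SD, n = 2), a log2 difference of 1.29 ± 0.200 (edgeR quasi-likelihood test, Benjamini-Hochberg adjusted p = 0.00817). Mymx, a small protein that fuses myoblasts, went from 0.407 ± 0.107 to 2.89 ± 0.120 CPM, a log2 difference of 2.82 ± 0.516 (edgeR quasi-likelihood adjusted p = 0.0187). Megf10, a receptor of satellite cells, rose by 0.54 ± 0.124 (edgeR quasi-likelihood adjusted p = 0.0461). The most abundant member, Mef2c (-0.03 ± 0.177), did not pass the test. Without any 1 control or surgery library, 0 of the 14 genes were called in this comparison, and without both replicates 4 4 were. Of all tested genes, 0.0393% to 0.101% and 3.16% were called higher in these fits.

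Between pMT and surgery, 3 of the 14 genes fell and 0 rose, beside 1.55% and 0.395% of all tested genes. The median of the list was -0.00063. Myog fell by 1.01 ± 0.165 on the log2 scale (edgeR quasi-likelihood adjusted p = 0.00744). Mymk, which acts with Mymx in fusion, fell by 1.35 ± 0.277 (edgeR quasi-likelihood adjusted p = 0.0250), and Mymx fell by 2.58 ± 0.401 (edgeR quasi-likelihood adjusted p = 0.00590). Between pMT/VitD and surgery, 4 fell and 0 rose, beside 5.03% and 2.4% of all tested genes. Myog fell by 1.09 ± 0.165, Mymk by 1.30 ± 0.280 and Megf10 by 0.43 ± 0.106. The other was Mymx, named after its values were seen. Between VitD and surgery 0 of the 14 were called (0% of all tested genes), with a median of 0.06. Between VitD and control 4 rose (5.48% of all tested genes), namely Myog (1.37 ± 0.188), Mymk (1.49 ± 0.315), Megf10 (0.65 ± 0.115) and Mymx. Without surgery replicate 1 or 2, 0 of the 14 were called between pMT and surgery, where 0.146% and 0.152% of all tested genes were called lower.

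Denervation response genes rise in fibres that lose their nerve, among them the subunits of the fetal acetylcholine receptor. This list was also chosen with earlier results of these libraries known. Its calls and p-values, in all comparisons, are likewise a description from which nothing is read. Of 13 such genes 12 were tested. Between surgery and control 3 rose and 0 fell, beside 1.25% and 0.296% of all tested genes. The median log2 difference of the list was 1.28. Chrng, the gamma subunit that marks the fetal receptor, went from 0.121 ± 0.0297 to 1.70 ± 0.508 CPM (SD, n = 2), a log2 difference of 3.78 ± 0.747 (edgeR quasi-likelihood adjusted p = 0.0268). Chrna1 rose by 1.49 ± 0.310 (edgeR quasi-likelihood adjusted p = 0.0330) and Ncam1, an adhesion protein that spreads over denervated fibres, by 1.09 ± 0.248 (edgeR quasi-likelihood adjusted p = 0.0454). The most abundant members, the ubiquitin ligases Trim63 (0.00 ± 0.188) and Fbxo32 (-0.14 ± 0.668), did not pass the test. Without any 1 control or surgery library 0 of the 12 were called, and without both replicates 4 6 were. Of all tested genes, 0.0393% to 0.101% and 3.16% were called higher in these fits.

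Between pMT and surgery 5 of the 12 denervation genes fell and 0 rose, beside 1.55% and 0.395% of all tested genes. The median of the list was -0.95. Chrna1 fell by 1.43 ± 0.253 (edgeR quasi-likelihood adjusted p = 0.0122), Runx1, a transcription factor of denervated muscle, by 1.28 ± 0.281 (adjusted p = 0.0333) and Ncam1 by 0.87 ± 0.206 (adjusted p = 0.0457). The other two, named after their values were seen, were the receptor subunits Chrnd and Chrng. Without surgery replicate 1 or 2, 0 of the 12 were called (0.146% and 0.152% of all tested genes lower), and without both replicates 4 4 were (2.28%). Between pMT/VitD and surgery 6 fell and 0 rose, beside 5.03% and 2.4% of all tested genes, and the median of the list was -1.01. Between VitD and control 7 rose, beside 5.48% of all tested genes. Among them were Ncam1 (1.35 ± 0.234), Runx1 (1.58 ± 0.324) and Gadd45a (1.501 ± 0.329), a stress gene of denervated fibres. Between VitD and surgery 0 were called (0% of all tested genes), with a median of 0.06. Neither list is independent of the 5 genes, since all were chosen with results of these libraries known.

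**Figure D5:**
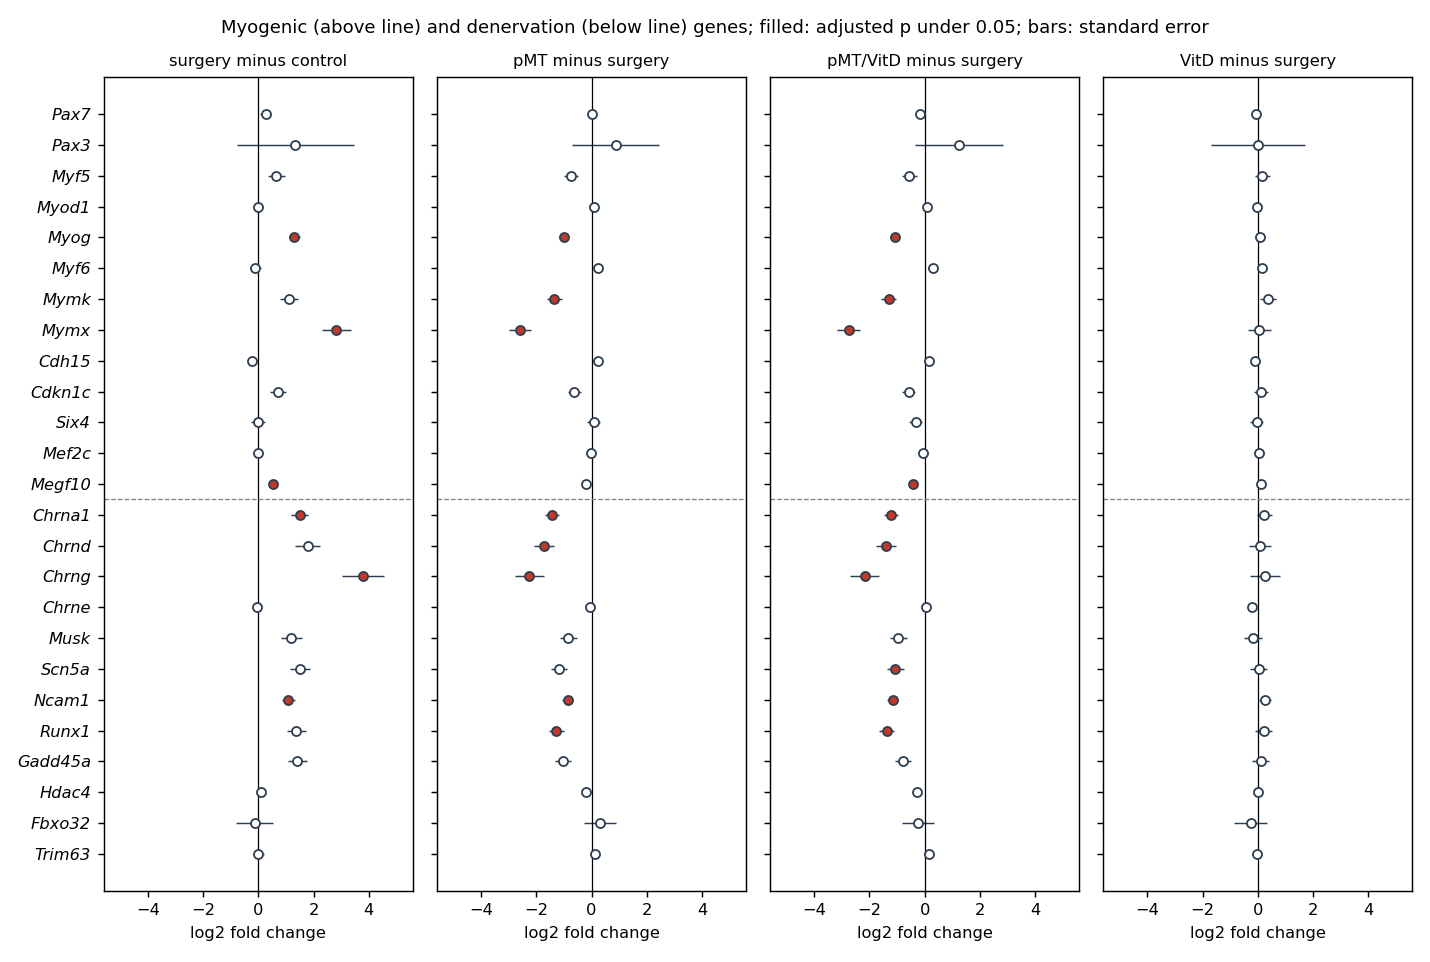
Log2 fold changes (horizontal) of 13 myogenic and 12 denervation genes (vertical, above and below the dashed line) in 4 comparisons, with standard errors as bars. Filled points had an adjusted p under 0.05 by edgeR's quasi-likelihood test. They lie to the right of 0 between surgery and control (3 of each list, beside 1.25% of all tested genes). They lie to the left between pMT and surgery (3 and 5, beside 1.55%). Both lists were chosen with earlier results of these libraries known, so nothing is read from these calls.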

How the data were processed

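RNA of rat multifidus was sequenced on an Illumina NovaSeq in paired-end mode. Per the study's methods, adapters were removed with Trimmomatic 0.38, alignment to rn6 used HISAT2 2.1.0 and SAMtools 1.9, and RefSeq genes were quantified with StringTie 2.1.3b. They deposited raw read counts per gene and TPM values scaled per library by the authors. The authors also deposited FPKM, which their quantification scaled by length and library and which entered no result, and handling of strand is not given in the sources used here. Groups came from the sample labels. Counts of 15 libraries (52342134 to 73557878 in total) were fitted by group in R 4.3.3 with edgeR 4.0.16 (glmQLFit, robust, TMM factors, filterByExpr, 17201 genes), with Benjamini-Hochberg adjustment over all genes and a threshold of 0.05. CPM used library totals multiplied by the TMM factors. Likeness used log2 CPM with a prior count of 2, among genes with a mean of at least 1. TPM gave the shares within families, since CPM is not comparable between genes. Alternatives were other scalings and filters, a replicate block, removal of a trend with gene length, only the 2 groups compared, exactTest, DESeq2 1.42.0 and leaving out libraries. Shares and correlations without both replicates 4, and the order and overlap of groups in TPM, were added after seeing the data. The quasi-likelihood step was tested on simulated data. Named list genes were the 3 most abundant called genes per direction and the 2 most abundant members, of which 1 gene is not reported here. The 5 genes and the lists were chosen with earlier results of these data known.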

Additional observations from a re-analysis of the deposited data

Results flagged for a closer look

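None of the 5 developmental genes had a library set apart within its group by Dixon's gap test, which was applied to 122 sets of 4 libraries and compares the gap of the highest or lowest library with the whole range (critical value 0.829). Of those sets 15 were marked, where chance would give 6.1, and all were genes of the adult, other embryonic, myogenic and denervation lists. In pMT replicate 4, log2 CPM was 8.94 for Myl2 (8.17 to 8.28 in the others of the group), 10.64 for Myl3 (9.33 to 9.36), 9.995 for Tnnt1 (9.03 to 9.15) and 9.14 for Tnnc1 (8.28 to 8.37), all slow-fibre or cardiac forms. The same library had 9.73 for Mybph (5.17 to 5.76), 4.71 for Cdkn1c (3.74 to 3.85) and 7.93 for Mef2c (8.25 to 8.29). In pMT/VitD replicate 4 the values were 13.02 for Tnni2 (13.44 to 13.51), -1.25 for Mybpc3 (-0.71 to -0.68), 3.78 for Cdkn1c (4.21 to 4.28) and 4.90 for Fbxo32 (3.95 to 3.98). In pMT/VitD replicate 3 they were 4.14 for Myh7b (3.13 to 3.19), 3.04 for Chrne (2.72 to 2.75) and -0.93 for Musk (-0.12 to 0.03), and in pMT replicate 1 Myh7b had 3.20 (3.40 to 3.44). These sets share libraries, and the cause was not tested.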

How the results depend on the processing

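Of 630 fitted differences of the 5 genes under the alternatives, 623 stayed near the main value and 7 moved. Staying meant a change smaller than the pooled SD of the gene's log2 CPM between libraries within groups. Where the main fit had not called the gene, a change of sign within this limit counted as staying. Myh8 kept its sign in 4 of 16 alternatives between pMT and surgery and in 4 of 15 between VitD and control. Counts of called genes were less stable. Between surgery and control (266 in the main fit) there were 997 with library size as the only scaling, 542 with a length trend removed, 5289 with only the 2 groups, 5923 with exactTest, 963 with DESeq2 and 716 without both replicates 4. Between pMT and surgery (334) there were 520 with only the 2 groups, 1180 with exactTest, 726 with DESeq2 and 541 without both replicates 4. Between pMT/VitD and surgery (1279) there were 3250 with library size, 836 with only the 2 groups, 2177 with DESeq2 and 3462 without both replicates 4. Between VitD and control (1492) there were 2795 with library size, 2378 with the length trend removed, 96 with only the 2 groups, 2421 with DESeq2 and 2589 without both replicates 4. Where the main fit called 0 genes, exactTest called 6 between VitD and surgery, 12 between pMT and control and 4 between pMT/VitD and control. DESeq2 called 97 between pMT/VitD and pMT. Without both replicates 4 there were 3136 between pMT/VitD and pMT, 4 between pMT and control, 11 between pMT/VitD and control and 325 for the difference of pMT effects with and without vitamin D. The causes were not tested. Library size as the only scaling moved the median log2 difference of all genes to 0.25 between surgery and control, -0.12 between pMT and surgery, -0.32 between pMT/VitD and surgery and 0.27 between VitD and control. It moved the share of calls that were higher from 80.8% to 97.2%, from 20.4% to 6.82%, from 32.3% to 3.02% and from 63.1% to 95.2%. Removing the length trend moved it from 32.3% to 48.8% between pMT/VitD and surgery and from 80.8% to 68.3% between surgery and control.

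Same-numbered replicates did not deviate together more than others. Their r was -0.50 to 0.17 over 24 pairs, 2 of them over 0.1. For different numbers it was -0.29 to 0.43 over 64 pairs, 8 of them over 0.1. In groups of 2 libraries the deviations mirror each other, so these values cannot exclude that same-numbered libraries share a batch. With a replicate block, 106 genes were called between surgery and control, 78 between pMT and surgery and 350 between pMT/VitD and surgery, and the lists of denervation and other embryonic genes had 12 and 1 calls. Over the 8 comparisons, adult sarcomere genes (0 calls) had 2 with library size, 1 with the length trend removed, 12 with only the 2 groups, 14 with exactTest, 3 with DESeq2 and 15 without both replicates 4. Other embryonic genes (0) had 4, 7, 10 and 2 with library size, the 2 groups, exactTest and DESeq2, and 5 without both replicates 4. Leaving out each replicate in turn gave 8 to 20 called genes between surgery and control, 27 to 290 between pMT and surgery, 122 to 2199 between pMT/VitD and surgery, 13 to 2396 between VitD and control, 0 to 1 between VitD and surgery, 0 to 1 between pMT and control and 0 to 2 between pMT/VitD and control. The denervation list (21 calls) had 7 to 21 and the myogenic list (14 calls) 6 to 16, and the adult and other embryonic lists 0 to 1 each.

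From counts over effective length, the surgery shares were 0.854% for Myh3, 1.42% for both developmental chains, 0.319% for Actc1, 0.0764% for Myl4 and 0.105% for Tnnt2. From raw counts they were 0.511% for Myh8, 1.42% for both chains, 0.349% for Actc1, 0.0697% for Myl4 and 0.128% for Tnnt2, and the control shares 0.466% for Myh8, 0.528% for both chains, 0.0299% for Myl4 and 0.0124% for Tnnt2. These shares kept their order between surgery and control. The lowest count of any of the 5 genes in any library was 102, for Tnnt2, and the control and surgery groups had 2 libraries each.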
